A study of Rattus norvegicus with 16 samples.

Results

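Collagen chain genes encode the single polypeptides that wind together into collagen molecules, and the deposited table of rat supraspinatus muscle held 27 of them among 17147 genes. They were taken as every row whose symbol is Col, a number, the letter a and a number. That rule reads no measured value, but the set was chosen with earlier results of these data known. Of the 27, 25 had enough fragments to be tested. Col1a2 was listed at 0 in every library and Col6a4 fell below the filter for low counts. The supraspinatus is a rotator cuff muscle, and all 16 libraries came from Sprague Dawley rats. They formed 4 groups of 4: unoperated controls (0 days), and 10, 30 and 60 days after a bilateral full-thickness supraspinatus tear made together with a suprascapular neurectomy, which removes the muscle's nerve supply. Tear and neurectomy were always made together, so their shares in any difference cannot be told apart. The groups include no sham-operated and no time-matched controls. The surgery itself and the time passed since 0 days therefore cannot be told apart from the injury either. The labels do not give the rats' age, and do not state whether libraries came from separate rats, so p-values measure only the spread between these libraries. The replicate numbers 1 to 4 name libraries and pair nothing across groups.

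Fibrillar collagens form the rope-like fibrils of the matrix between muscle fibres, and their rise after injury is the usual readout of muscle fibrosis. Basement membrane collagens form the sheet around each muscle fibre, capillary and nerve, and beaded-filament collagen links that sheet to the fibrils. FACIT collagens have an interrupted triple helix and decorate the surface of fibrils, multiplexins sit between basement membrane and fibrils, and transmembrane collagens are anchored in cell surfaces.

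By these textbook classes the 27 rows held 10 fibrillar chains, 3 basement membrane chains (Col4a1, Col4a3 and Col4a4), 2 beaded-filament chains (Col6a2 and Col6a4) and 4 FACIT chains (Col9a1, Col9a2, Col14a1 and Col16a1). The others were the short-chain network collagen Col8a1, the multiplexins Col15a1 and Col18a1, the transmembrane chains Col13a1, Col17a1 and Col23a1, the anchoring fibril chain Col7a1, and Col26a1. Collagen genes with no row of this form, such as Col4a2, Col6a1, Col6a3 and Col12a1, were not analysed here. A level below is given in CPM, the fragments of a gene per 1 M (mega) fragments of the library after scaling with TMM factors, which set the bulk of the genes equal between libraries. CPM is not divided by transcript length, so levels were compared between times for 1 gene and not between genes.

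The proximal promoters of 7 chains are shown first because the results turn on these genes. With TMM factors Col4a1, Col15a1 and Col5a3 fell and later rose, Col11a1, Col16a1 and Col8a1 stood high at every time after injury, and Col7a1 fell. The falls of Col4a1, Col15a1, Col5a3 and Col7a1 at 10 days were not called when libraries were scaled by their totals. Sequences and coordinates are from RefSeq on rat assembly GRCr8, each read 5′ to 3′ along the gene's own strand and ending at the base before its start site. Capitals mark matches, on either strand, to the TATA box (TATAAA), the CCAAT box or the Sp1 box (GGGCGG). Col4a1 lies at chr16:84885521-84885596 (plus strand), Col15a1 at chr5:66297396-66297545 (plus), Col5a3 at chr8:27625949-27626098 (minus) and Col11a1 at chr2:204508986-204509135 (plus). Col16a1 lies at chr5:147672946-147673095 (plus), Col8a1 at chr11:56246632-56246781 (plus) and Col7a1 at chr8:118483214-118483363 (plus).
Col4a1: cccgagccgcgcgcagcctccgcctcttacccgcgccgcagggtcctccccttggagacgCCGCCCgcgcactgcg
Col15a1: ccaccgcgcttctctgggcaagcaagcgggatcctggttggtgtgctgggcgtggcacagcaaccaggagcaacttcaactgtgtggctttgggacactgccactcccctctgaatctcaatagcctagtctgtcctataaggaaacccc
Col5a3: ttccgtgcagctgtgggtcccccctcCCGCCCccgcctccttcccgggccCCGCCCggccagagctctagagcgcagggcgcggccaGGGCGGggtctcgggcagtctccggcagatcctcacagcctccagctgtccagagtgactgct
Col11a1: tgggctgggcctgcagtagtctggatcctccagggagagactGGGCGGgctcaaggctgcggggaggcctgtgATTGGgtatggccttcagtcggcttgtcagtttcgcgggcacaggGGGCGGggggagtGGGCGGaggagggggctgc
Col16a1: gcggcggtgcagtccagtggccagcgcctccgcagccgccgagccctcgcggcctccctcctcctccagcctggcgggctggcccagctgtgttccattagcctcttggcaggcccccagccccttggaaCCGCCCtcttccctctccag
Col8a1: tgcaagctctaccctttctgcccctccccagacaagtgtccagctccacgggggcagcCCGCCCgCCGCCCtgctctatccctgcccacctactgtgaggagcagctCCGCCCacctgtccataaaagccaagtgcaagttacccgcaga
Col7a1: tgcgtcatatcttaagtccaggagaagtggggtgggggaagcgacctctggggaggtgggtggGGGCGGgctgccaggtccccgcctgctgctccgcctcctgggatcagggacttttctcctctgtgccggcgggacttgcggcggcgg

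The Col4a1 stretch is only 76 bases long because that is the whole distance to the start site of Col4a2 on the other strand. Col4a3 and Col4a4 also start back to back, with 412 bases between them on chromosome 9. Of the 27 members 22 have a promoter entry, and Col1a1, Col2a1, Col3a1, Col6a2 and Col14a1 have none. In the 150 bases before the start site, GGGCGG was present in 12 of the 22, among them 6 of the 7 shown, and in 27.8% of 27457 rat promoters. CCAAT was present in 3 of the 22 (Col6a4, Col11a1 and Col17a1), against 23.7% of all, and TATAAA in Col17a1 alone, against 8.16%. CAGAC, the core of Smad binding sites, was found in 8 (27.5% of all), CANNTG in 9 (46.1%) and TGANTCA in 0 (3.61%). These are letter matches on either strand, with overlaps between different motifs allowed, and they say nothing of binding.

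Library totals ran from 17.2 to 39.9 M fragments (M, mega), so that 3 fragments, taken as the smallest level the depth can show, corresponded to 0.0752 to 0.175 CPM. Of the members 25 had a fragment in every library, 4 averaged at least 100 CPM (Col1a1, Col3a1, Col4a1 and Col6a2) and 6 of those tested averaged under 1 CPM. The markers of skeletal muscle fibres summed to 199865 to 221115 CPM in unoperated muscle, so the defining transcripts of the labelled tissue were present, and to 47277 to 53080 CPM at 10 days. When libraries were scaled by their totals instead of TMM factors, the all-gene median of log2 fold changes moved up by 0.66, 0.49 and 0.41 at 10, 30 and 60 days. Values below are on the TMM scale and so compare a gene with the bulk of genes, and values with library totals are named as such.

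Collagen transcripts took a larger share of the fragments after injury. Before any scaling, the 27 genes together held 0.0647% ± 0.0199 (SD, n = 4) of a library's fragments in unoperated muscle. They held 0.206% ± 0.0953, 0.188% ± 0.0436 and 0.192% ± 0.0594 at 10, 30 and 60 days. The lowest library at 10 days (replicate 2, 0.0927%) stood just above the highest unoperated one (0.0921%), and the 30- and 60-day libraries, at 0.136% to 0.270%, all lay above both. On the TMM scale the 27 genes summed to 849 ± 264 CPM (SD, n = 4) at 0 days and to 1712 ± 792, 1766 ± 467 and 1880.0 ± 515 CPM afterwards. On that scale day10 replicate 2, at 787 CPM, lay within the unoperated range of 602 to 1206 CPM, and every 30- and 60-day library lay above it. Col1a1 alone made up 14.95% ± 2.16 (SD, n = 4) of the fragments of these 27 genes in unoperated muscle, and 38.9% ± 5.28, 24.9% ± 3.57 and 17.002% ± 3.58 at 10, 30 and 60 days. That total lacks Col1a2, listed at 0, and chains with no row, and is not corrected for transcript length. The percentages are therefore compared between times only and are not shares of all collagen transcripts. In bulk muscle a change in the number of cells that make a transcript and a change in its amount per cell cannot be told apart.

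**Figure D1:**
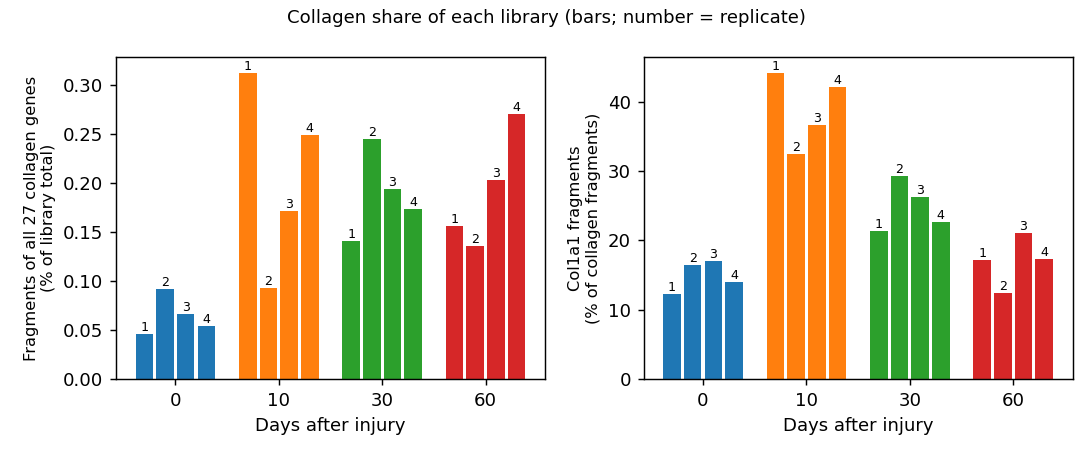
Left, fragments of the 27 collagen genes as a percentage of each library's total. Right, Col1a1 as a percentage of the fragments of these 27 genes, which lack Col1a2 (listed at 0) and chains with no row. Each bar is 1 library, numbered by replicate, at 0, 10, 30 and 60 days. The collagen share at 10 days runs from 0.0927% to 0.313%, and the Col1a1 part averages 38.9% there against 14.95% at 0 days.

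Against 0 days, 11 of the 25 tested members rose and 5 fell at 10 days, where 33.3% of all 11658 genes tested rose and 29.4% fell (edgeR quasi-likelihood test, adjusted p under 0.05). At 30 days 17 rose and 2 fell, against 33.7% and 30.9% of all genes, and at 60 days 20 rose and 1 fell, against 29.9% and 29.1%. Since 62.7%, 64.6% and 59% of all genes were called at these times, the 16 members called at 10 days are near the background in number. At 60 days rises made up 20 of the 21 calls, while over all genes rises and falls were about equal in number. The median log2 fold change of the members was 0.41, 0.93 and 1.06, and that of all genes tested 0.06, 0.05 and 0.04. The 4 libraries lay above all unoperated ones for 7 members at 10 days and below them for 6 (31.2% and 27.8% of all genes). At 30 and at 60 days they lay above for 17 members and below for 2 (31.1% and 29.1% of all genes at 30 days, 24% and 26% at 60 days). The 3 comparisons share the unoperated libraries. Col2a1, Col9a2, Col17a1 and Col26a1 had at most 11 fragments in any unoperated library and passed the low-count filter only through operated ones. Rises of these genes, counted here on either scale, were thus favoured in advance. With library totals 17, 21 and 22 members rose and 1 fell at each time (Col9a1 at 10 days, Col7a1 later). Over all genes the share of calls that were rises went from 53.1%, 52.2% and 50.7% to 87.4%, 84.1% and 82.7%. On that scale a predominance of rises is therefore not particular to the members.

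The time courses differed between chains. Rises at all 3 times were called for 9 members: Col1a1, Col3a1, Col5a2, Col8a1, Col11a1, Col16a1, Col23a1, Col26a1 and Col27a1. Another 7 rose at 30 and 60 days with no call at 10 days (Col2a1, Col4a3, Col6a2, Col11a2, Col14a1, Col17a1 and Col18a1). With library totals 5 of these were also called higher at 10 days: Col6a2 (0.99), Col11a2 (0.69, edgeR adjusted p 0.0118), Col14a1 (0.97), Col17a1 (1.18, 0.0377) and Col18a1 (0.85, 0.00220). Col4a1, Col5a3 and Col15a1 were lower at 10 days and higher at 60 days, and none of these falls was called with library totals. Col7a1 was lower at all 3 times and Col9a1 at 10 and 30 days. Col5a1 rose at 10 and 60 days, Col13a1 rose at 10 and 30 days, and Col4a4 and Col9a2 were not called at any time on the TMM scale, where Col9a2 was called at all 3 with library totals. The highest group mean stood at 60 days for 15 of the 25, at 10 days for 5, at 30 days for 3 and at 0 days for 2.

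**Figure D2:**
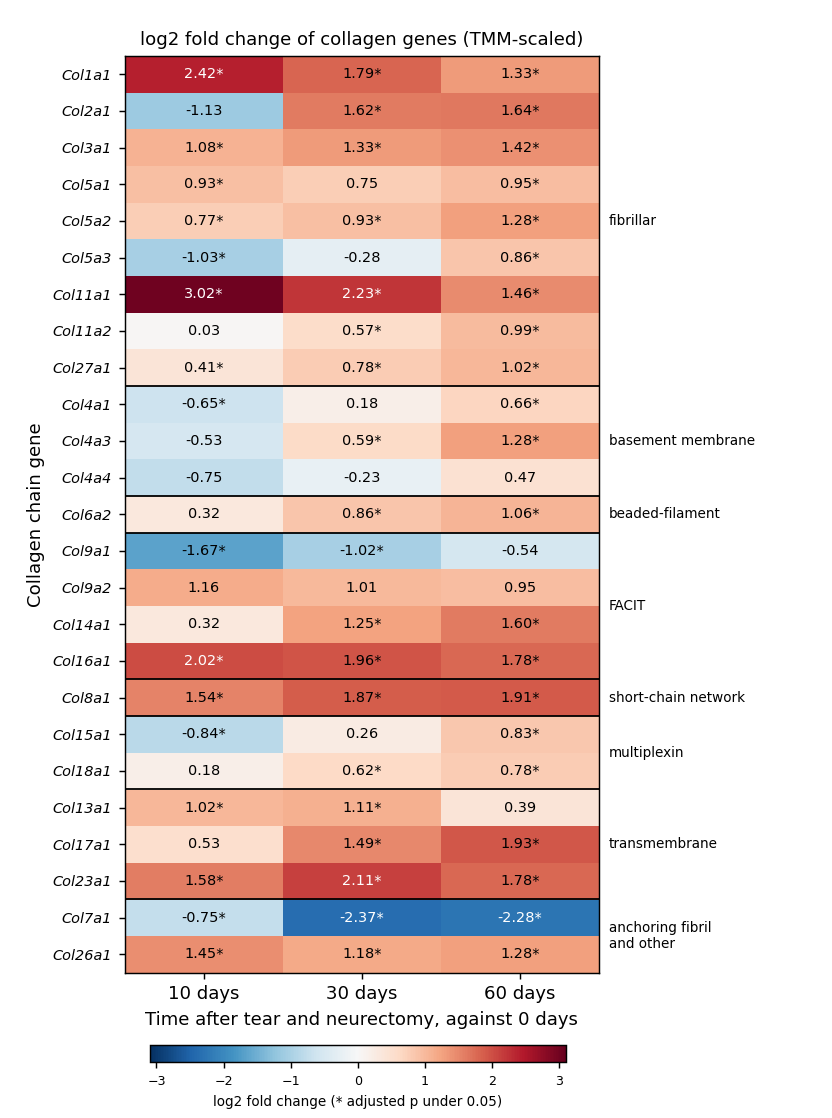
Log2 fold change (TMM-scaled) of the 25 tested collagen genes at 10, 30 and 60 days against 0 days, in rows grouped by class, with an asterisk where the adjusted p was under 0.05. Most rows redden from left to right, Col1a1 and Col11a1 fade from 2.42 and 3.02 at 10 days to 1.33 and 1.46 at 60 days, and Col7a1 is blue throughout.

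Among the 9 tested fibrillar chains, 6 rose and 1 fell at 10 days, 7 rose at 30 days and all 9 rose at 60 days, with median log2 fold changes of 0.77, 0.93 and 1.28. Over all genes tested 33.3%, 33.7% and 29.9% rose and 29.4%, 30.9% and 29.1% fell at these times. Col1a1, the main chain of type I collagen, stood at 74.3, 198, 149.8 and 99.3 CPM in unoperated libraries 1 to 4 and at 1151, 256, 509 and 870.1 CPM at 10 days. It stood at 261, 677, 506 and 363 CPM at 30 days and at 278, 166, 432 and 437 CPM at 60 days. Every 10- and 30-day library lay above the unoperated ones, and at 60 days the groups overlapped. The log2 fold change was 2.42 ± 0.46 (SE; edgeR adjusted p 0.000285), 1.79 ± 0.45 (0.00267) and 1.33 ± 0.45 (0.0182) at the 3 times. Col1a1 was lower at 60 than at 10 days by log2 -1.09 (edgeR adjusted p 0.0437). Dropping 1 library at a time, from the 16 fitted, ended that call in 6 fits (day0 replicates 3 and 4, day10 replicates 1 and 4, day60 replicates 1 and 2), with values of -1.08 to -0.73. Upper-quartile factors, limma-voom, no filter, a fit of those 2 groups alone, the title letter L or R as a covariate and the replicate block also ended it, with values of -1.13 to -0.97 (adjusted p 0.0525 to 0.0712). Dropping 1 library ended the 60-day call against 0 days in 3 fits (day0 replicate 1, day60 replicates 3 and 4), with values of 1.15 to 1.18. Col1a2, which encodes the partner chain of Col1a1 in type I collagen, was listed at 0 in all 16 libraries, as were Crtap, Ogn and Cd34, so no level of it is given.

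Col3a1 encodes the only chain of type III collagen, the fibril of soft and healing tissue. Its level was 147, 401, 283 and 207 CPM at 0 days and 823, 248, 443 and 677 CPM at 10 days, where replicate 2 lay within the unoperated range. It was 444, 848, 716 and 603 CPM at 30 days and 562, 453, 788 and 982 CPM at 60 days, and these later libraries all lay above the unoperated ones. In log2 units the changes were 1.08 ± 0.36 (SE; edgeR adjusted p 0.0175), 1.33 ± 0.37 (0.00499) and 1.42 ± 0.37 (0.00373). The 10-day call was lost without day0 replicate 1 (0.89) or day10 replicate 1 (0.81), and when these 2 groups were fitted alone (1.06, edgeR adjusted p 0.0726).

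The ratio of 2 transcripts within a library does not depend on how libraries are scaled. The ratio of Col1a1 to Col3a1 fragments was 0.48 to 0.53 in the unoperated libraries and 1.03 to 1.40, 0.59 to 0.80 and 0.37 to 0.55 at 10, 30 and 60 days. All 10-day and all 30-day values lay above every unoperated one, and the 60-day values spanned them. The mean log2 ratio differed from 0 days by 1.27, 0.42 and -0.13 (two-sided exact permutation p 0.0286, 0.0286 and 0.429). With 4 against 4 libraries 0.0286 is the smallest p possible, and over the 24 ratio tests made here it adjusts to 0.0527, so no ratio passed at 0.05. The groups of 13 of the 24 did not overlap.

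Type V and XI chains are minor components that sit inside fibrils and start their assembly. Col11a1 had the largest fold change of any member called at 10 days. It was low in the unoperated libraries at 2.19, 2.75, 2.45 and 2.35 CPM and stood at 26.0, 10.4, 13.97 and 28.98 CPM at 10 days. At 30 days it was 8.04, 17.4, 12.6 and 7.60 CPM and at 60 days 6.32, 3.87, 6.72 and 9.96 CPM. All 12 libraries after injury lay above the unoperated ones, and all 60-day libraries lay below the 10-day ones. The log2 fold change was 3.02 ± 0.38 (SE; edgeR adjusted p 4.70e-06), 2.23 ± 0.38 (0.000102) and 1.46 ± 0.39 (0.00433) against 0 days, and -1.55 (0.00111) between 60 and 10 days. Against Col5a1 within libraries, its log2 ratio was higher than at 0 days by 2.07, 1.37 and 0.43, with no overlap at any time (exact permutation p 0.0286 each).

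Col11a2, the other type XI chain tested, averaged 4.46 CPM at 0 days and gave 0.03 (adjusted p 0.912), 0.57 (0.0420) and 0.99 (0.00191). Its 10-day value was -0.0039 with RLE factors, and dropping 1 library ended its 30-day call in 8 of 16 fits (any unoperated library, day10 replicate 4, or day30 replicate 2, 3 or 4), with values of 0.48 to 0.62. RLE factors, limma-voom, thinned counts, the title letter and the replicate block also ended it (0.48 to 0.57). Col2a1, the chain of cartilage fibrils, stayed under 1 CPM in every library. It was 0.0446 to 0.403 CPM at 0 days and 0.0329 to 0.154, 0.461 to 0.680 and 0.449 to 0.844 CPM at 10, 30 and 60 days. The 30- and 60-day libraries all lay above the others, with log2 fold changes of 1.62 (edgeR adjusted p 0.00673) and 1.64 (0.00896) against 0 days. Without day0 replicate 2, the unoperated library at 0.403 CPM, these became 2.69 and 2.72.

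Markers of cartilage and bone summed to 2.01 to 3.21 CPM at 0 days and 9.76 to 14.1, 7.84 to 21.6 and 4.57 to 13.2 CPM at 10, 30 and 60 days. Of 10 listed, 9 had a row and 5 passed the low-count filter. Of these 5, 4, 5 and 3 rose, where 33.3%, 33.7% and 29.9% of all genes tested rose. Acan, a cartilage proteoglycan, was at 0 to 0.0562 CPM at 0 days and 1.61 to 5.83 CPM at 10 days. A marker this close to 0 at 0 days passes the filter only through operated libraries, so its rise was favoured in advance. Tendon cell markers rose in 6, 5 and 4 of 7 at the 3 times and fell in 0, 0 and 2. Their sum was 114 to 146 CPM at 0 days and 209 to 310, 265 to 339 and 156 to 368 CPM afterwards. The part of such cells in the Col2a1, Col11a1 and Col1a1 values was not tested.

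The 3 type V chains did not share a time course. Col5a2 stood at 32.8, 59.6, 41.3 and 36.2 CPM at 0 days and 105, 34.8, 59.2 and 91.4 CPM at 10 days. It stood at 66.0, 104, 83.4 and 70.8 CPM at 30 days and 86.3, 78.7, 105 and 142 CPM at 60 days. The 30- and 60-day libraries lay above the unoperated ones and the 10-day ones overlapped them. Its log2 fold changes came to 0.77 (edgeR adjusted p 0.0323), 0.93 (0.0117) and 1.28 (0.00179), and dropping 1 library ended the 10-day call in 5 of 16 fits (day0 replicates 1, 3 and 4, day10 replicates 1 and 4), with values of 0.54 to 0.76. That call was also lost with limma-voom (0.67), no filter (0.77), a fit of the 2 groups alone (0.75) and the replicate block (0.75). Col5a1 gave 0.93 (edgeR adjusted p 0.0188), 0.75 (0.0501) and 0.95 (0.0198) and overlapped the unoperated range at each time. Its 10-day call was lost without day0 replicate 1 (0.83) or day10 replicate 1 (0.59), with limma-voom (0.80) and in a fit of the 2 groups alone (0.91), and its 60-day call without day0 replicate 1 (0.86), day60 replicate 1 (0.91) or day60 replicate 4 (0.85). The 30-day rise was called with library totals (1.24), upper-quartile factors (0.88), DESeq2 (0.73), a mean of at least 1 CPM (0.79), no robust estimation (0.75) and a fit of the 2 groups alone (0.75).

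Col5a3, the third chain of the family, was 22.4, 42.6, 24.0 and 19.5 CPM at 0 days and 19.4, 6.31, 12.6 and 14.8 CPM at 10 days. It was 17.96, 29.5, 24.4 and 17.8 CPM at 30 days and 50.0, 43.5, 47.4 and 56.6 CPM at 60 days. The 10-day libraries lay below every unoperated one and the 60-day libraries above every other. The log2 fold change was -1.03 ± 0.29 (SE; edgeR adjusted p 0.00588), -0.28 ± 0.29 (0.411) and 0.86 ± 0.29 (0.0177) at the 3 times. It was 1.89 (5.04e-05) between 60 and 10 days. With library totals the 10-day value was -0.37 and not called (adjusted p 0.253), the 30-day value was 0.21, and the rise from 10 to 60 days was 1.64 (edgeR adjusted p 0.000185). The 60-day call against 0 days was lost without day0 replicate 4 (0.75). Within libraries the log2 ratio of Col5a3 to Col5a1 differed from 0 days by -1.89 and -1.01 at 10 and 30 days, without overlap (exact permutation p 0.0286 each), and by -0.03 at 60 days (p 0.83). Col27a1, a fibrillar chain known from cartilage, gave 0.41 (edgeR adjusted p 0.0485), 0.78 (0.000815) and 1.02 (0.000104), and dropping 1 library ended its 10-day call in 12 of 16 fits (all but day10 replicate 2, day30 replicates 1 and 3 and day60 replicate 4), with values of 0.32 to 0.45. RLE factors, DESeq2, limma-voom, no filter, a fit of the 2 groups alone, thinned counts and the replicate block also ended it (0.37 to 0.41).

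**Figure D3:**
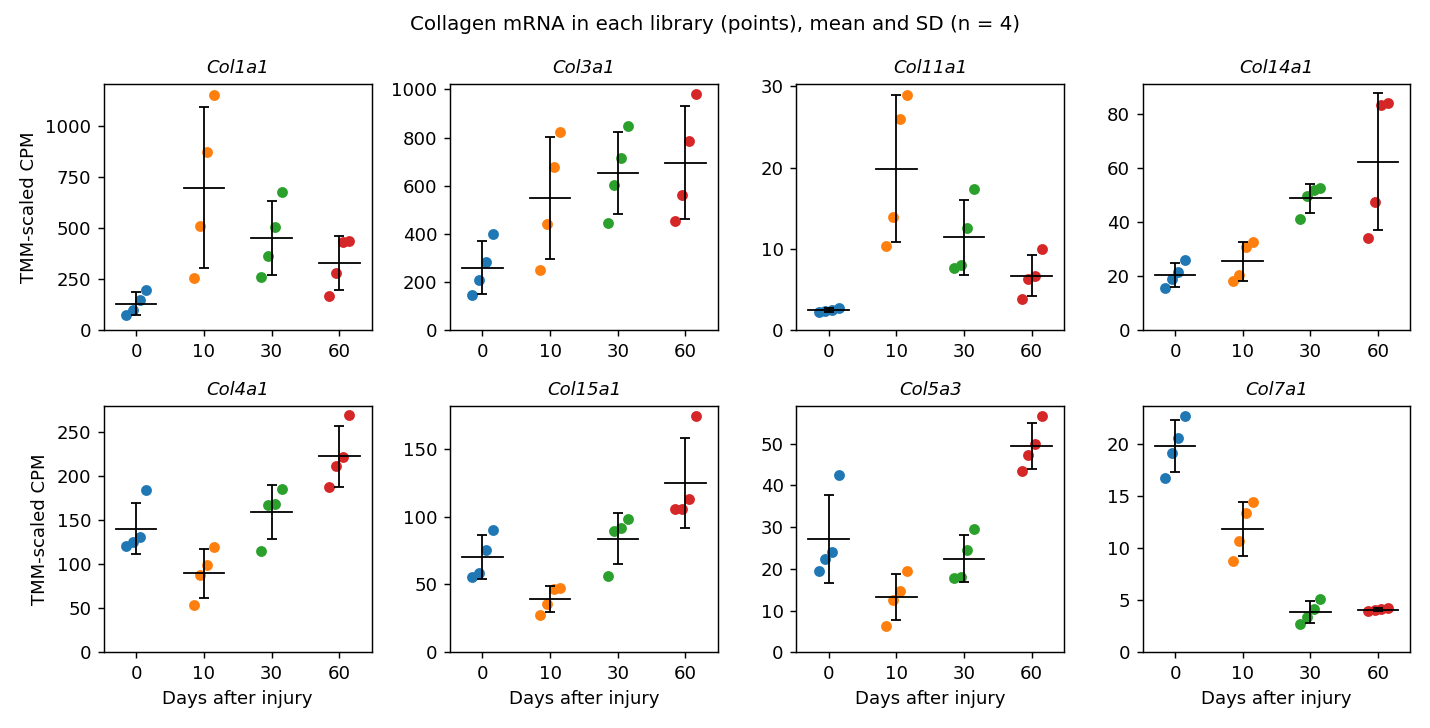
TMM-scaled CPM of 8 collagen genes in each library (points), with the mean and SD of the 4 libraries at 0, 10, 30 and 60 days. Col1a1 and Col11a1 peak at 10 days, Col3a1 and Col14a1 are highest at 60 days, Col4a1, Col15a1 and Col5a3 dip at 10 days on this scale before their 60-day rise, and Col7a1 falls to about 4 CPM.

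The 3 basement membrane chains had their highest group means at 60 days, as had 15 of the 25 members tested. Of the 3, 0 rose and 1 fell at 10 days, 1 rose at 30 days and 2 rose at 60 days, with medians of -0.65, 0.18 and 0.66. Over all genes tested 33.3%, 33.7% and 29.9% rose and 29.4%, 30.9% and 29.1% fell. With 3 chains, the counts at 10 and 30 days are not read as a trait of the class. Col4a1, a chain of nearly every basement membrane, was 131, 184, 126 and 121 CPM at 0 days and 119, 53.3, 98.7 and 87.3 CPM at 10 days. It was 115, 186, 167 and 168 CPM at 30 days and 211, 222, 188 and 269 CPM at 60 days. The 10-day libraries lay below all unoperated ones, by a small gap, and the 60-day libraries above all others. Against 0 days the fold changes in log2 were -0.65 ± 0.21 (SE; edgeR adjusted p 0.0147), 0.18 ± 0.21 (0.474) and 0.66 ± 0.21 (0.0143), and 1.31 (8.17e-05) between 60 and 10 days. The 10-day value was 0.01 with library totals (adjusted p 0.957) and lost its call without day0 replicate 2 (-0.49, edgeR adjusted p 0.0622). With library totals the 30-day value was 0.66 and called (edgeR adjusted p 0.0117), and the rise from 10 to 60 days was 1.06 and still called (0.000518). Against Col3a1 within libraries, the log2 ratio of Col4a1 differed from 0 days by -1.72 and -1.21 at 10 and 30 days, without overlap (exact permutation p 0.0286 each), and by -0.78 at 60 days (p 0.0857).

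Col4a3 and Col4a4 encode chains of a basement membrane network best known from kidney, lung and the neuromuscular junction. Col4a3 was 3.60, 2.86, 2.45 and 2.73 CPM at 0 days and 2.38, 2.40, 1.85 and 1.41 CPM at 10 days. It was 5.24, 3.78, 4.20 and 4.26 CPM at 30 days and 4.75, 9.87, 5.49 and 8.13 CPM at 60 days. The later libraries all lay above the unoperated ones. Its log2 fold change was -0.53 (adjusted p 0.0626; 0.13 with library totals; called with RLE factors, DESeq2, thinned counts and a fit of the 2 groups alone at -0.67 to -0.55), 0.59 (edgeR adjusted p 0.0329) and 1.28 (0.000177). Dropping 1 library ended the 30-day call in 5 of 16 fits (day0 replicates 2, 3 and 4, day30 replicates 1 and 4), with values of 0.49 to 0.60. Col4a4 was 0.506, 0.257, 0.357 and 0.623 CPM at 0 days and 0.232, 0.263, 0.297 and 0.215 CPM at 10 days. It was 0.531, 0.261, 0.0800 and 0.603 CPM at 30 days and 0.369, 0.673, 0.526 and 0.800 CPM at 60 days. The 60-day libraries lay above all 10-day ones, and both groups overlapped the unoperated range. From 10 to 60 days it rose by 1.23 (edgeR adjusted p 0.0254), and was not called with library totals (0.99, 0.0766) or without day10 replicate 1 or 4 or day60 replicate 2 or 4 (1.05 to 1.19). Col4a4 passed the low-count filter only with its 60-day libraries included, so that rise was favoured in advance.

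Multiplexins release anti-angiogenic fragments and belong to the zone next to the basement membrane. Col15a1, which encodes a chain important for the stability of muscle and capillaries, was 55.8, 90.6, 75.4 and 58.7 CPM at 0 days and 47.7, 27.4, 46.5 and 35.3 CPM at 10 days. It was 56.2, 98.2, 91.9 and 89.3 CPM at 30 days and 106, 113, 106 and 175 CPM at 60 days. As with Col4a1, the 10-day libraries lay below the unoperated ones and the 60-day libraries above all others. Its fold changes were log2 -0.84 ± 0.23 (SE; edgeR adjusted p 0.00426), 0.26 ± 0.22 (0.325) and 0.83 ± 0.22 (0.00502), and 1.67 (1.44e-05) between 60 and 10 days. With library totals the 10-day value was -0.18 and not called (adjusted p 0.492), the 30-day value was 0.74 and called (edgeR adjusted p 0.00902), and the rise from 10 to 60 days was 1.43 (edgeR adjusted p 7.30e-05).

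Col18a1, the other multiplexin and the source of endostatin, was 19.5, 28.0, 22.9 and 20.8 CPM at 0 days and 31.8, 14.3, 29.1 and 28.5 CPM at 10 days. It was 29.3, 39.8, 38.2 and 33.1 CPM at 30 days and 31.9, 34.9, 39.9 and 50.6 CPM at 60 days. The 10-day libraries spread to both sides of the unoperated range and the later ones lay above it. In log2 units the changes were 0.18 (adjusted p 0.468), 0.62 (edgeR adjusted p 0.0174) and 0.78 (0.00507). The log2 ratio of Col15a1 to Col18a1 differed from 0 days by -0.98 and -0.37 at 10 and 30 days, without overlap (exact permutation p 0.0286 each), and by 0.05 at 60 days (p 0.714).

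**Figure D4:**
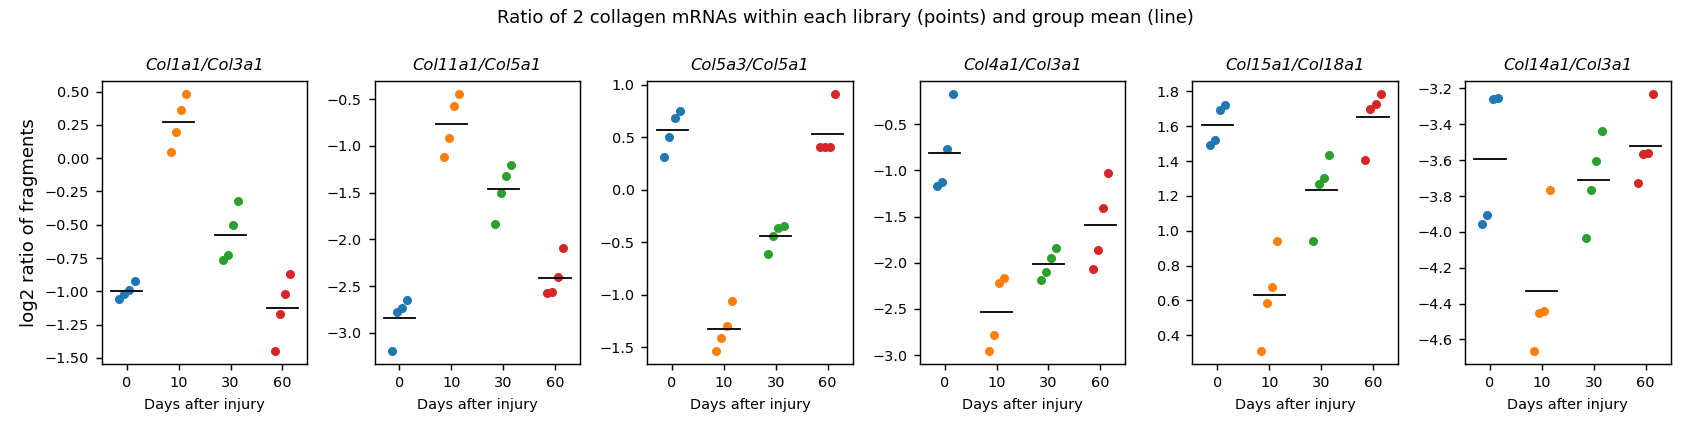
Log2 ratio of the fragments of 2 collagen genes in each library (points, sorted within a group) with the group mean (line), at 0, 10, 30 and 60 days. The Col1a1 to Col3a1 and Col11a1 to Col5a1 ratios stand above 0 days at 10 days, the Col5a3 to Col5a1, Col4a1 to Col3a1 and Col15a1 to Col18a1 ratios stand below, and the Col14a1 to Col3a1 ratios overlap.

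Markers of several cell types that lie on basement membranes were also lower at 10 days on the TMM scale, where 29.4% of all genes fell. Muscle fibre markers fell in 9 of 9, but not every list fell. Satellite cell markers rose in 2 and fell in 1 of 6, and of 6 adipocyte markers 0 were called. The satellite cell sum was 35.2 to 41.1 CPM at 0 days and 57.0 to 79.2 CPM at 10 days. Of 8 endothelial markers 7 fell at 10 days, and their sum was 351 to 406 CPM at 0 days and 199 to 299, 296 to 337 and 314 to 480 CPM at 10, 30 and 60 days. Of 9 smooth muscle and pericyte markers 8 fell at 10 days, with sums of 398 to 499, 164 to 250, 261 to 310 and 303 to 544 CPM. Of 10 markers of Schwann cells and perineurium 5 fell and 1 rose at 10 days and 7 rose at 60 days, with sums of 104 to 155, 49.6 to 82.3, 101 to 149 and 180 to 373 CPM. With library totals 0 rose and 1 fell of the 8 endothelial markers at 10 days, 1 rose and 4 fell of the 9 smooth muscle and pericyte markers, and 3 rose and 3 fell of the 10 of Schwann cells and perineurium. The part of these cells in the Col4a1, Col4a3, Col5a3 and Col15a1 values was not tested.

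Col6a2, a chain of the beaded filaments that surround muscle fibres, was the only beaded-filament chain tested. It was 49.9, 102, 80.4 and 65.6 CPM at 0 days and 125, 60.2, 79.0 and 109.6 CPM at 10 days. It was 109, 162, 146 and 124 CPM at 30 days and 149, 116, 149.8 and 206 CPM at 60 days. The groups overlapped at 10 days and not later. Its log2 fold changes came to 0.32 ± 0.24 (SE; adjusted p 0.257), 0.86 ± 0.24 (edgeR adjusted p 0.00598) and 1.06 ± 0.24 (0.00167), and with library totals the 10-day value was 0.99 and called (edgeR adjusted p 0.00192). Col6a4 had 0, 1, 0 and 3 fragments in the unoperated libraries and 10, 4, 14 and 9 at 10 days. It had 10, 10, 5 and 8 fragments at 30 days and 4, 5, 4 and 6 at 60 days, too few to pass the filter. On the TMM scale day10 replicate 2 (0.131 CPM) lay below day0 replicate 4 (0.144 CPM), so the groups overlapped at 10 days, and the 30- and 60-day libraries lay above the unoperated ones.

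The FACIT chains did not share a time course. Of the 4 tested, 1 rose and 1 fell at 10 days, 2 rose and 1 fell at 30 days and 2 rose at 60 days, with medians of 0.74, 1.13 and 1.28. Over all genes tested 33.3%, 33.7% and 29.9% rose and 29.4%, 30.9% and 29.1% fell. The 10-day counts lay near these shares and are not read as a trait of the class. Col16a1 rose early and stayed high. It was 3.32, 6.64, 4.64 and 4.65 CPM at 0 days and 31.7, 9.30, 15.3 and 22.7 CPM at 10 days. It was 13.7, 25.8, 20.6 and 15.3 CPM at 30 days and 13.05, 11.3, 20.9 and 21.7 CPM at 60 days. All 12 later libraries lay above the unoperated ones, with log2 fold changes of 2.02 ± 0.35 (SE; edgeR adjusted p 0.000132), 1.96 ± 0.35 (0.000190) and 1.78 ± 0.36 (0.000566).

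Col14a1, a FACIT of tendon and muscle connective tissue, rose later. It was 15.4, 25.8, 18.9 and 21.6 CPM at 0 days and 32.5, 18.2, 20.4 and 30.9 CPM at 10 days. It was 41.0, 51.8, 52.7 and 49.5 CPM at 30 days and 47.4, 34.1, 83.9 and 83.2 CPM at 60 days. The 10-day libraries overlapped the unoperated ones, and the 30- and 60-day libraries lay above both groups. Against 0 days the fold changes in log2 were 0.32 ± 0.27 (SE; adjusted p 0.315), 1.25 ± 0.27 (edgeR adjusted p 0.000752) and 1.60 ± 0.27 (0.000125), and 0.93 (0.00827) between 30 and 10 days. With library totals the 10-day value was 0.97 and called (edgeR adjusted p 0.00426). Its ratio to Col3a1 overlapped that of the unoperated libraries at each time (exact permutation p 0.0857, 0.657 and 0.771).

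Col9a1 and Col9a2 encode chains of type IX collagen, which coats cartilage fibrils, and both averaged under 1 CPM. Col9a1 was 0.843, 0.844, 0.669 and 0.671 CPM at 0 days and 0.203, 0.263, 0.264 and 0.215 CPM at 10 days. It was 0.390, 0.427, 0.240 and 0.402 CPM at 30 days and 0.415, 0.505, 0.585 and 0.578 CPM at 60 days. All 12 later libraries lay below the unoperated ones. Its fold changes were log2 -1.67 ± 0.26 (SE; edgeR adjusted p 2.70e-05), -1.02 ± 0.24 (0.00152) and -0.54 ± 0.25 (0.0814), and the 10-day fall was also called with library totals (-1.02, edgeR adjusted p 0.00279), unlike the 30-day fall (-0.53, 0.0738). Col9a2 was 0.225, 0.403, 0.402 and 0.240 CPM at 0 days and 0.464, 0.624, 1.05 and 0.799 CPM at 10 days. It was 1.13, 0.760, 0.360 and 0.322 CPM at 30 days and 0.138, 0.841, 0.994 and 0.622 CPM at 60 days. All 10-day libraries lay above the unoperated ones and the later groups overlapped them. It gave 1.16 (adjusted p 0.0539), 1.01 (0.0942) and 0.95 (0.138), and with library totals 1.82 (edgeR adjusted p 0.00382), 1.51 (0.0155) and 1.36 (0.0366). Its 10-day rise was also called with upper-quartile factors (1.22), DESeq2 (1.15) and a fit of the 2 groups alone (1.14), and its 30-day rise with the title letter (1.21). Without day60 replicate 1 all 3 were called, at 1.16, 1.004 and 1.30. Col9a2 passed the low-count filter only through operated libraries, so a rise was favoured in advance on any scale.

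Col7a1 went against every other member called at 30 and 60 days except Col9a1 at 30 days. It encodes the chain of anchoring fibrils, which fasten basement membranes to the matrix below and are best known from skin. Its level was 16.7, 22.6, 20.5 and 19.1 CPM at 0 days and 8.71, 14.4, 13.3 and 10.7 CPM at 10 days. It was 5.14, 3.40, 2.68 and 4.10 CPM at 30 days and 4.10, 4.04, 3.92 and 4.22 CPM at 60 days. The groups at 0, 10 and 30 days did not overlap, in falling order, and the 60-day libraries lay within the 30-day range. In log2 units the changes were -0.75 ± 0.17 (SE; edgeR adjusted p 0.00105), -2.37 ± 0.18 (1.83e-08) and -2.28 ± 0.19 (6.30e-08). With library totals the 10-day value was -0.09 and not called (adjusted p 0.669), while those at 30 and 60 days were -1.86 and -1.87 (edgeR adjusted p 3.80e-07 and 9.75e-07).

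Col8a1, a short chain that forms networks in vessel walls, was 1.57, 2.20, 1.83 and 1.39 CPM at 0 days and 7.89, 3.45, 3.62 and 5.56 CPM at 10 days. It was 5.81, 8.88, 6.24 and 4.70 CPM at 30 days and 7.52, 4.15, 7.13 and 7.69 CPM at 60 days. All 12 later libraries lay above the unoperated ones. Its log2 fold changes came to 1.54 ± 0.29 (SE; edgeR adjusted p 0.000247), 1.87 ± 0.29 (4.20e-05) and 1.91 ± 0.30 (5.12e-05).

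The 3 transmembrane chains were low and none fell. Col23a1 was 1.35, 1.03, 0.580 and 0.527 CPM at 0 days and 2.32, 2.43, 2.83 and 2.77 CPM at 10 days. It was 5.35, 2.90, 2.84 and 3.90 CPM at 30 days and 4.38, 2.19, 1.40 and 3.78 CPM at 60 days. No later library fell into the unoperated range, and the fold changes in log2 were 1.58 ± 0.35 (SE; edgeR adjusted p 0.000977), 2.11 ± 0.35 (6.92e-05) and 1.78 ± 0.36 (0.000522). Col13a1, a chain of the neuromuscular and muscle-tendon junctions, was 0.956, 1.14, 0.580 and 0.623 CPM at 0 days and 1.62, 2.37, 1.09 and 1.69 CPM at 10 days. It was 2.16, 1.88, 1.44 and 1.69 CPM at 30 days and 1.15, 1.23, 1.34 and 0.667 CPM at 60 days. Only the 30-day libraries all lay above the unoperated ones. Against 0 days the fold changes in log2 were 1.02 (edgeR adjusted p 0.00490), 1.11 (0.00277) and 0.39 (0.286), and the 60-day value was called with library totals (0.79, edgeR adjusted p 0.0306). Markers of the nuclei under the neuromuscular junction rose in 5, 5 and 6 of 7 at the 3 times, against 33.3%, 33.7% and 29.9% of all genes. The part of these nuclei in the Col13a1 values was not tested. Col17a1, known from the skin's attachment plaques, was 0.0562, 0.147, 0.268 and 0.335 CPM at 0 days and 0.406, 0.296, 0.264 and 0.215 CPM at 10 days. It was 0.461, 0.784, 0.640 and 0.402 CPM at 30 days and 0.507, 0.393, 1.34 and 0.933 CPM at 60 days. The 30- and 60-day libraries lay above the unoperated ones, with log2 fold changes of 0.53 (adjusted p 0.371), 1.49 (edgeR adjusted p 0.0101) and 1.93 (0.00221), and the 30-day call was lost with thinned counts (1.12). Col26a1 was 0.225, 0.0734, 0.178 and 0.144 CPM at 0 days and 0.377, 0.361, 0.362 and 0.553 CPM at 10 days. It was 0.461, 0.285, 0.4001 and 0.241 CPM at 30 days and 0.231, 0.168, 0.585 and 0.489 CPM at 60 days. The 10- and 30-day libraries lay above the unoperated ones and day60 replicate 2 did not, with log2 fold changes of 1.45 (edgeR adjusted p 0.00807), 1.18 (0.0293) and 1.28 (0.0276). Col26a1, like Col2a1, Col9a2 and Col17a1, passed the low-count filter only through operated libraries, so a rise was favoured in advance. Dropping 1 library ended its calls at 30 and 60 days in 4 fits each (day0 replicates 2 and 4 for both, with day30 replicates 1 and 3 or day60 replicates 3 and 4), with values of 0.92 to 1.27, and DESeq2 did not call the 30-day rise (1.18, adjusted p 0.0541).

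**Figure D5:**
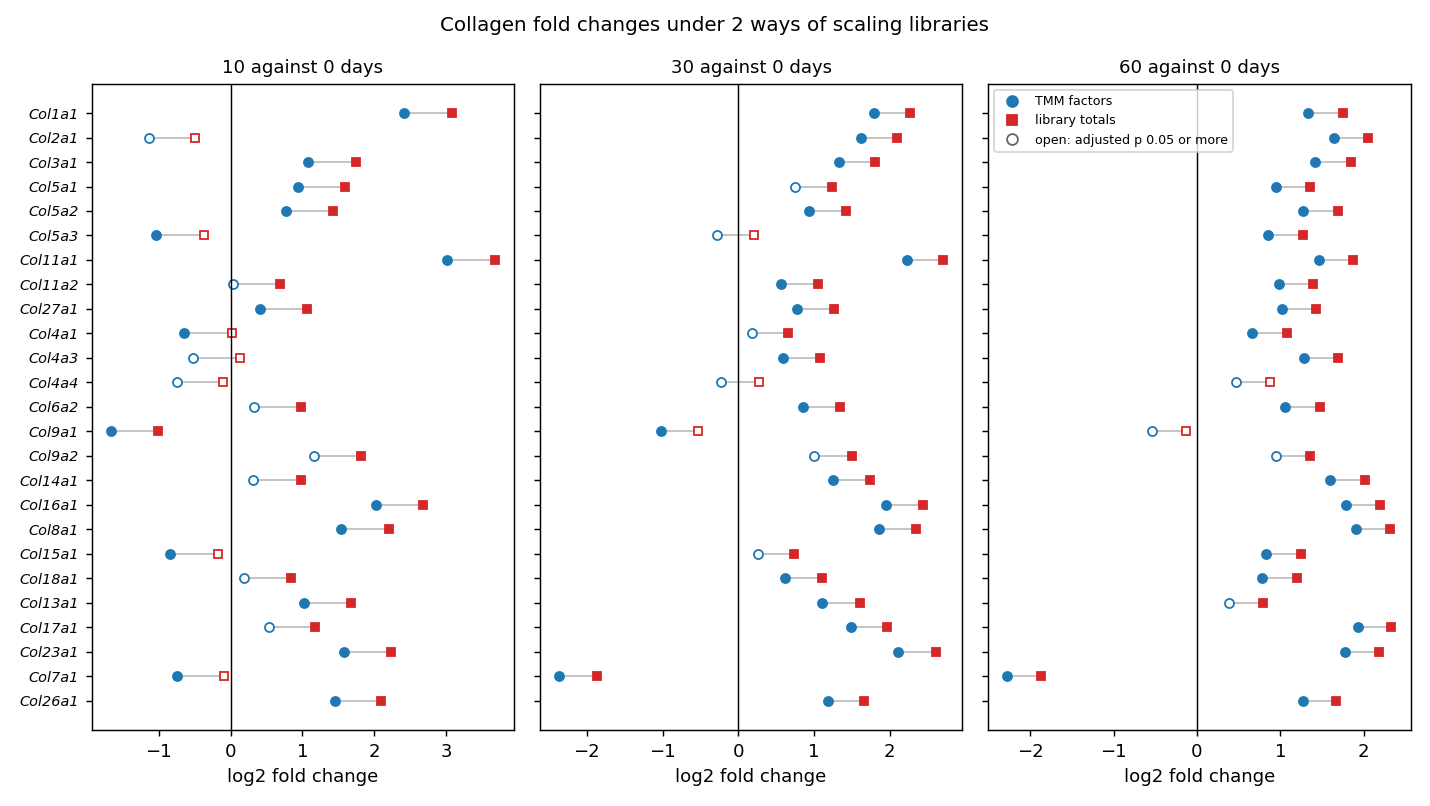
Log2 fold change of each tested collagen gene against 0 days with TMM factors (circles) and with library totals (squares), open where the adjusted p was 0.05 or more. Library totals move every point to the right, so that at 10 days 17 genes rise and only Col9a1 falls, while Col7a1 remains lower at 30 and 60 days.

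Comparisons between the operated groups followed the chains after the first 10 days. From 10 to 30 days 6 members rose and 1 fell, where 23% of all genes rose and 24.3% fell. The rises were Col2a1 (2.75), Col4a1 (0.83), Col4a3 (1.12), Col5a3 (0.76), Col14a1 (0.93) and Col15a1 (1.10), and the fall was Col7a1 (-1.62). Col2a1 had 1 to 5 fragments in the 10-day libraries and passed the low-count filter only through later ones. Its rises from 10 to 30 and from 10 to 60 days were thus favoured in advance, as was that of Col4a4 from 10 to 60 days. From 30 to 60 days 2 rose, Col4a3 (0.69) and Col5a3 (1.14), and 0 fell, against 10.3% and 12.4% of all genes. From 10 to 60 days 13 rose and 3 fell, against 29.1% and 31.9%. All 3 basement membrane chains and both multiplexins were among the rises, with values of 0.60 to 1.81. Of the 9 fibrillar chains 4 rose (Col2a1, Col5a3, Col11a2 and Col27a1) and 2 fell (Col1a1 and Col11a1). With library totals 9 members rose and 4 fell in this comparison, where 28% of the calls over all genes were rises. The rises of Col4a4, Col6a2, Col18a1 and Col27a1 were then not called. Dropping 1 library ended the rise of Col5a3 from 10 to 30 days in 8 fits (0.53 to 0.81) and that of Col4a3 from 30 to 60 days in 5 (0.49 to 0.68). Library totals (0.58 and 0.61) and fits of the 2 groups alone (0.75 and 0.69) also ended both, and no filter, the title letter and the replicate block ended that of Col5a3 (0.69 to 0.74). From 10 to 60 days the rise of Col6a2 was lost without day10 replicate 2 (0.57) or day60 replicate 4 (0.59), and that of Col18a1 without day60 replicate 4 (0.47) or in a fit of the 2 groups alone (0.61).

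Libraries of a group differed together. At 10 days replicate 2 was the lowest library for 17 of the 25 members and replicate 1 the highest for 15, and at 0 days replicate 1 was the lowest for 13 and replicate 2 the highest for 18. At 30 days replicate 2 was the highest for 14, and at 60 days replicate 4 for 16. Among the 10-day libraries, replicate 2 also had the lowest summed markers of tendon cells (209 CPM), cartilage and bone (9.76 CPM), endothelium (199 CPM), smooth muscle and pericytes (164 CPM), Schwann cells and perineurium (49.6 CPM) and macrophages (126 CPM). It had the highest sums for fibroblasts (529 CPM) and for nuclei of the neuromuscular junction (1969 CPM), and the part of these cells in its collagen values was not tested. Without day0 replicate 1 the number of members that rose at 10 days was 7 in place of 11.

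Genes that make, cut and bind collagen were followed from lists of textbook members. Over all genes tested 33.3%, 33.7% and 29.9% rose and 29.4%, 30.9% and 29.1% fell at 10, 30 and 60 days. No list was tested against these shares, and counts near them are not read as a response of a list. Of 14 genes for the folding and hydroxylation of the chains, 7, 6 and 7 rose and 3, 3 and 5 fell at 10, 30 and 60 days. Plod2, a lysyl hydroxylase that prepares crosslinks of fibrotic matrix, rose by log2 2.34 ± 0.15 (SE; edgeR adjusted p 3.23e-09), 1.86 and 1.26. P4ha1, a subunit of prolyl 4-hydroxylase, fell by 1.38, 1.33 and 0.92, and remained lower with library totals. With library totals 12, 12 and 10 genes of this list rose and 1 fell at each time. On that scale rises made up 87.4%, 84.1% and 82.7% of the calls over all genes. Of 9 genes for propeptide removal and crosslinking, 5 rose and 1 fell at 10 days, 7 rose at 30 days and 9 at 60 days. Adamts14, which trims the amino end of procollagens, rose by 2.83 (edgeR adjusted p 4.77e-07) at 10 days. Loxl1, an enzyme of the lysyl oxidase family, rose by 2.30 (4.16e-06) and 2.38 (4.58e-06) at 30 and 60 days.

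Of 8 proteoglycans and other partners of fibrils, 6, 8 and 8 rose and 0 fell. Comp, a matrix protein that binds fibrils, rose by 2.87 and 2.99 at 10 and 30 days, and the proteoglycan Bgn by 2.26 at 60 days (edgeR adjusted p 8.26e-07, 6.83e-07 and 2.22e-06). Of 7 collagen receptors 4, 3 and 4 rose and 0 fell, led by the integrin Itga11 at 10 and 60 days (1.56 and 1.71) and by Mrc2, which takes up collagen, at 30 days (1.54). Of 9 genes for collagen breakdown 7, 8 and 7 rose and 1, 1 and 0 fell. Mmp14, a membrane-bound collagenase, rose by 1.82 at 10 days, and the protease Ctsk by 1.88 and 1.81 at 30 and 60 days. The inhibitor Timp3 fell by 1.11 and 0.73 at 10 and 30 days, and its 30-day value was -0.23 and not called with library totals (adjusted p 0.117).

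Of 12 genes of TGF-beta signalling, which switches on fibrillar collagen genes in fibroblasts, 7, 5 and 4 rose and 1, 3 and 3 fell. At 60 days these counts lay near the shares over all genes, of which 29.9% rose and 29.1% fell. With library totals 10, 8 and 7 of the 12 rose and 0, 0 and 1 fell. On that scale 87.4%, 84.1% and 82.7% of the calls over all genes were rises. The ligand Tgfb2 rose by 2.35 and 1.79 at 10 and 30 days (edgeR adjusted p 3.21e-06 and 4.81e-05), and the matricellular target Ctgf rose by 1.36 at 60 days (7.13e-05). Smad3, a transducer of the signal, fell by 0.89 at 60 days (0.000527). The inhibitor Smad7 fell by 0.75 at 30 days (0.00166) and was not called with library totals (-0.26).

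Of 7 fibroblast markers tested 2 rose and 2 fell at 10 days, and 6 rose at 30 and at 60 days, with median log2 fold changes of 0.39, 1.46 and 1.62. Their sums were 435 to 740 CPM at 0 days and 433 to 529, 860 to 1116 and 1314 to 2102 CPM at 10, 30 and 60 days. Cd34 of this list was listed at 0. With library totals 5 of the 7 rose and 0 fell at 10 days, where 87.4% of the calls over all genes were rises. Macrophage markers rose in 8, 9 and 9 of 9. Adipocyte markers were not called at 10 or 30 days and rose in 6 of 6 at 60 days. Satellite cell markers rose in 2, 3 and 5 of 6 and fell in 1, 0 and 0, and muscle fibre markers fell in 9, 7 and 5 of 9 and rose in 0, 0 and 1. Over all genes 33.3%, 33.7% and 29.9% rose and 29.4%, 30.9% and 29.1% fell at the 3 times. At 10 days the fibroblast and satellite cell counts lay near these shares on the TMM scale. The part of these cell types in the collagen values was not tested.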

How the data were processed

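RNA was extracted with a miRNeasy kit and sequenced from TruSeq mRNA libraries, per the labels' protocols. The authors deposited 1 table of estimated counts, per the file headers raw fragments of each gene in each of 16 libraries, not scaled for depth or length. Of 17147 genes 233 held a fractional value and 0 of them were collagen chains. The submitters' processing notes name bcl2fastq 1.8.4, FastQC, TopHat2 2.0.9, Bowtie2, Cufflinks, Cuffdiff 2.1.1 and genome build rn5, without their roles. The annotation, strand setting and filters are not given in the sources used here, so reads of overlapping genes on opposite strands may not be told apart. All 27 member symbols were found in RefSeq on GRCr8, which gave names and promoters only.

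Values were rounded to whole counts. The low-count filter (filterByExpr by group) kept 11658 genes. An edgeR quasi-likelihood model with TMM factors, robust estimation and no covariate was fitted to the 16 libraries, with Benjamini-Hochberg adjustment over all genes tested. A gene was called at an adjusted p under 0.05, and an SE is the log2 fold change divided by the square root of F. The common biological coefficient of variation was 0.15. Log2 ratios within libraries had 0.5 fragments added to each gene and were compared by exact permutation tests, 24 in all. Within groups, libraries differed beyond sampling noise (chi-square per gene 13.2 to 107.6 over 24 pairs). Levels and floors cover counting error only, since PCR copies are not independent molecules.

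Collagen rows were all open to naming. Values in every library were given for the 3 most abundant tested chains of each class and for the 4 called chains with the largest fold change at each time that averaged at least 1 CPM. Some further chains were added after their values were seen. In each pathway list the called genes with the largest rise and the largest fall at each time, averaging at least 5 CPM, were named. The members, lists and tests were chosen with earlier results of these data known, so none is independent support. On simulated data of 11524 genes, 159 of 200 genes changed 2-fold were called at 10 against 0 days, as were 7 unchanged genes. In the real data 62.7% of all genes were called at 10 days, so these rates do not carry over to it.

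Alternatives were RLE and upper-quartile factors, library totals, DESeq2, limma-voom, no filter, a mean of at least 1 CPM, no robust estimation, fits of the 2 compared groups, thinned counts, an adjusted p under 0.01, the title letter L or R as a covariate, the replicate block, other constants in the ratios and leaving out each library. The fits used edgeR 4.0.16, DESeq2 1.42.0 and limma 3.58.1 in R 4.3.3, and the figures matplotlib 3.10.9 in python 3.11.15. The values of 1 gene of the TGF-beta list are not reported here.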

Additional observations from a re-analysis of the deposited data

Results flagged for a closer look

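In 5 cases 1 library of a group of 4 stood apart from the other three by more than Dixon's 95% critical value. Chance gives about 1 such case in 20 groups, and 100 groups of the 25 tested genes were checked, so 5 would arise by chance. Col2a1 was 0.844 CPM in day60 replicate 4, against 0.449 to 0.468 CPM in the others of its group. Col15a1 was 175 CPM in the same library, against 106 to 113 CPM. Col4a1 was 184 CPM in day0 replicate 2, against 121 to 131 CPM, and its 10-day call was lost without that library. Col8a1 was 4.15 CPM in day60 replicate 2, against 7.13 to 7.69 CPM. Col26a1 was 0.553 CPM in day10 replicate 4, against 0.361 to 0.377 CPM.

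Col4a1 and Col15a1, named above, and Col5a3 were called lower at 10 days and higher at 60 days against the same unoperated libraries. The direct test of 60 against 10 days gave log2 differences of 1.31 for Col4a1, 1.89 for Col5a3 and 1.67 for Col15a1 (edgeR adjusted p 8.17e-05, 5.04e-05 and 1.44e-05). The 3 genes were picked by those opposite calls, so a rise in the direct test was favoured in advance and is no further support. These rises were also called with library totals, and none of the 3 falls at 10 days was.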

How the results depend on the processing

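Scaling mattered most. With library totals 17 members rose and 1 fell at 10 days, 1 fell at 30 days, 2 fell from 10 to 30 days, and 1 rose and 1 fell from 30 to 60 days. Over all genes, rises then made up 87.4% of the calls at 10 days, 27.6% from 10 to 30 days and 26.3% from 30 to 60 days. Medians at 10, 30 and 60 days became 1.07, 1.42 and 1.48 for all members, 1.43, 1.42 and 1.70 for fibrillar, 1.40, 1.62 and 1.69 for FACIT and 0.99, 1.35 and 1.48 for beaded-filament chains. For basement membrane chains they became 0.0134, a reversal, 0.66 and 1.08. Directions also reversed with library totals for Col4a1 (0.0134) and Col4a3 (0.13) at 10 days and for Col4a4 (0.27) and Col5a3 (0.21) at 30 days. Col11a2 at 10 days reversed with RLE factors (-0.0039) and DESeq2 (-0.0055). Upper-quartile factors moved the basement membrane median at 30 days to 0.30. DESeq2 gave 2 falls from 10 to 30 days. Without a filter the beaded-filament median, then over Col6a2 and Col6a4, was 1.44, 1.66 and 1.66. A mean of at least 1 CPM left fewer chains, with FACIT medians of 1.18, 1.64 and 1.74, basement membrane medians of 0.42 and 1.02 at 30 and 60 days, and 1 fall at 30 days. Fits of the 2 compared groups gave a 60-day FACIT median of 1.62 and 1 rise from 30 to 60 days. The title letter gave 2 falls from 10 to 30 days, and 4 rises and 1 fall from 30 to 60 days. At an adjusted p under 0.01, 7 and 11 members rose at 10 and 30 days and 0 from 30 to 60 days (2 at 0.05). The cause of these shifts was not tested beyond what each setting itself changes. Leaving out 1 library gave 7 to 12 rises at 10 days, 1 to 2 falls from 10 to 30 days and 1 to 3 rises from 30 to 60 days. The basement membrane median at 30 days was then 0.0935 to 0.34 and the median of all members at 60 days 1.04 to 1.30. Leave-one-out values ran from -0.19 to 0.18 for Col11a2 at 10 days, from -0.53 to 0.0742 for Col4a4 and from -0.44 to 0.0373 for Col5a3 at 30 days. Libraries with the same column suffix did not deviate together (24 pairs, mean correlation 0.0133, 5 over 0.1). With the suffix as a replicate block the calls of Col5a2 (0.75, edgeR adjusted p 0.0653) and Col27a1 (0.40, 0.0727) at 10 days, Col11a2 at 30 days (0.56, 0.0687), Col5a3 from 10 to 30 days (0.74, 0.0828) and Col1a1 from 10 to 60 days (-1.13, 0.0685) were lost. Calls were also lost with limma-voom (Col5a1, Col5a2 and Col27a1 at 10 days, Col11a2 at 30 days, Col1a1 from 10 to 60 days), DESeq2 (Col27a1 at 10 days, Col26a1 at 30 days), RLE factors (Col27a1 at 10 days, Col11a2 at 30 days) and no filter (Col5a2 and Col27a1 at 10 days, Col5a3 from 10 to 30 days, Col1a1 from 10 to 60 days). Fits of the 2 compared groups lost those of Col3a1, Col5a1, Col5a2 and Col27a1 at 10 days, Col5a3 from 10 to 30 days, Col4a3 from 30 to 60 days and Col1a1 and Col18a1 from 10 to 60 days. Thinned counts lost those of Col27a1 at 10 days, Col11a2 and Col17a1 at 30 days and Col9a1 from 10 to 60 days. The title letter lost those of Col11a2 at 30 days, Col5a3 from 10 to 30 days and Col1a1 from 10 to 60 days, and upper-quartile factors the last of these. Other constants in the ratios and the block moved none of the 24 ratios by more than the spread between libraries. Depth limited the 6 chains under 1 CPM most.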
